A study of Mus musculus with 18 samples.

Results

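Expression in OSKM iPSCs was compared with that in the mouse embryonic fibroblasts (MEFs) from which such cells are made. OSKM stands for Oct4, Sox2, Klf4 and c-Myc, and the comparison used the 4 arrays of OSKM clones and the 3 arrays of MEFs, 7 of the 18 arrays of the series. The 3 arrays of mouse embryonic stem cell (mESC) clones served as a second reference, and the remaining 8 arrays, of iPSCs made with EpCAM and its soluble domain EpEX, entered only the estimate of the spread. MEFs were taken from E13.5 embryos and carried the reverse tetracycline transactivator rtTA*M2 at the ROSA26 locus together with the POU5f1tm2Jae allele, which places GFP under the Oct4 promoter. All 3 groups carry these alleles per the labels. To make OSKM iPSCs, MEFs received 2.5 μg of the PB-TET-OSKM plasmid with 2.5 μg of a PiggyBac helper plasmid, and doxycycline (1.5 μg/ml) then switched the factors on over 21 days on feeder cells. Each OSKM or mESC array is 1 clone. The 3 MEF samples are biological replicates in the labels but a single primary culture in the series description, so p-values may measure only technical spread on the MEF side.

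Reprogramming turns a differentiated cell into a pluripotent one. Fibroblasts are mesenchymal cells that secrete collagens, proteoglycans and growth factors and are held in that state by factors such as Prrx1 and Twist1. Pluripotent cells grow as compact epithelial colonies, depend on a network around Oct4 (gene Pou5f1), Sox2 and Nanog, express some genes otherwise seen in germ cells and divide rapidly. The transition from the one to the other includes the loss of mesenchymal genes and the gain of epithelial ones.

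The values are log2 levels of 45037 probe sets, each a group of probes for 1 or more transcripts. Each probe set had been centred on its own median over the 18 arrays, so a value of 0 is the level of a typical array of the series, and the values do not show whether a transcript was detected. Levels of different genes cannot be set against each other, and in cell populations fewer cells expressing a gene and less RNA per cell cannot be told apart. A gene symbol was available for 904 probe sets (2.01%), which read 687 genes. Symbols came with the authors' lists only. In the listed probe sets all arrays other than those of MEFs lay 10-fold or more from the MEF mean, and in one direction. Of the 687 genes, 361 were gained and 326 were lost in OSKM iPSCs. Their differences from MEFs are thus given as a description, since the lists were drawn from the same arrays.

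Over all probe sets, 11254 differed between OSKM iPSCs and MEFs at an adjusted p under 0.05 and at least 2-fold (limma, Benjamini-Hochberg adjustment), which is 25.0%. Of these, 5805 were higher (12.9%) and 5449 were lower (12.1%) in OSKM iPSCs. The values of the 4 OSKM and 3 MEF arrays did not overlap for 21187 probe sets (47.0%). All 687 genes passed the test and 683 did not overlap between the groups, which the lists fix for most genes. The median log2 difference was 4.62 for the gained and −4.97 for the lost genes, against 0.02 over all probe sets. Without MEF sample 1, which is described next, the medians were 4.93 and −5.74. After quantile normalization 4018 probe sets passed, 47.5% of them higher, against 51.6% as deposited, and 33.3% of the 11254 were among them. The medians of the gained and lost genes were then 1.64 and −1.91, so the sizes given in the following paragraphs, and the order of genes by size, are those of the values as deposited. Quantile normalization gives all arrays the same distribution. The SD over probe sets had been 1.185 to 1.388 in MEF arrays and 0.193 to 0.222 in OSKM arrays, so MEF values are narrowed by construction. A call lost after this step thus cannot tell whether a difference is robust.

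MEF sample 1 stood apart from the other MEF arrays. The root mean square log2 difference over all probe sets was 0.864 and 0.883 between sample 1 and samples 2 and 3, which differed from each other by 0.236. OSKM clones differed from one another by 0.191 to 0.235. Of the fibroblast markers, 9 of 14 had a symbol and their mean value was 4.44 in MEF sample 1, against 6.52 and 6.58 in samples 2 and 3, while the OSKM clones ranged from −0.43 to −0.27. The mean of all 10 pluripotent markers was −7.71, −7.68 and −7.72 in MEF samples 1, 2 and 3, and −0.03 to 0.07 in OSKM clones. Sample 1 thus had a lower mean of fibroblast markers, while its mean of pluripotent markers was at the level of the other MEFs. The equal pluripotent means held opposite movements. Sox2 was at −8.41 in sample 1 against a mean of −5.25 in samples 2 and 3. Esrrb was also lower in sample 1, at −6.58 against −6.49. The other pluripotent markers were higher in sample 1, as Dppa5a at −9.22 against −9.85 and Pou5f1 at −3.27 against −3.88. Markers of blood, endothelial, muscle, nerve, cartilage, endoderm, trophoblast and keratinocyte cells had no symbol in the lists and were not analysed here.

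Pluripotency transcription factors were among the genes gained most. Of 48 such genes, 20 had a symbol and all 20 were higher in OSKM iPSCs, with log2 differences from 3.81 to 9.65 and a median of 6.06. In this and the following lists a symbol itself required 10-fold or more from the MEF mean. Members nearer to MEFs are therefore missing. Nanog, a homeodomain factor of the core network, was at 0.04, 0.01, −0.14 and −0.15 in OSKM clones 1 to 4 and at −9.53, −9.79 and −9.82 in MEF samples 1 to 3. The difference of 9.65 ± 0.14 (SE), 803-fold, was the second largest gain of all named genes on the values as deposited, and 3.88 after quantile normalization. Zfp42 (Rex1), a zinc finger protein used as a marker of naive pluripotency, was at −0.13 to 0.09 in OSKM clones and at −7.94, −8.21 and −8.31 in MEFs, a 274-fold gain. Both genes separated the groups by far more than the spread within either.

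Sall4, Nr0b1 and Esrrb, all regulators of the pluripotent state, were gained by 7.37, 6.78 and 6.57 on the log2 scale. For Esrrb, an orphan nuclear receptor, the OSKM clones lay at 0.01, 0.03, 0.06 and 0.09 and the MEF samples at −6.58, −6.53 and −6.45, so that MEF sample 1 did not differ from the others here. Sox2, one of the transfected factors, was at 0.14, 0.06, 0.02 and −0.07 in OSKM clones and at −8.41, −5.24 and −5.26 in MEFs. Its gain was 6.34 with all MEFs and 5.29 without sample 1, in which it was lowest. Zfp462, Tbx3 and Klf5 went the other way, with values of −1.41, −2.58 and −2.93 in MEF sample 1 and of −5.72 to −4.85 in samples 2 and 3.

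Pou5f1, the first of the transfected factors, had the smallest gain of the 20 genes. It was at 0.24, 0.23, 0.07 and −0.03 in OSKM clones, at −3.27, −3.62 and −4.13 in MEFs and at 5.62, 5.66 and 5.66 in mESCs. OSKM clones thus lay 3.81 ± 0.42 log2 units above MEFs (14.0-fold) and 5.52 ± 0.42 below mESCs, between the 2 references. After quantile normalization, which narrows MEF values by construction, the gain over MEFs was 1.42 and did not pass the test (limma adjusted p = 0.252). That of Nr5a2 was then 0.81, under the 2-fold limit. Whether the probe set reads the transgene as well as the chromosomal copy is not given in the sources used here. Klf4 and c-Myc had no symbol in the lists and were not analysed here.

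The promoters of these genes are shown where they hold letters known to be bound by Oct4 or Sox2, the octamer ATGCAAAT or the Sox-type CATTGT, searched on both strands. Promoter windows are from RefSeq (GRCm38.p6), and capitals mark the match. CATTGT was found in 12.6% of 32851 promoter windows of the mouse and ATGCAAAT in 1.74%, so a match alone is common for the first and rarer for the second. In 339 windows of gained genes the shares were 6.19% for CATTGT and 2.36% for ATGCAAAT. In 320 windows of lost genes they were 7.19% and 3.44%, and the differences were not tested. The Klf-type CCACACCC and the E-box CACGTG, letters for Klf4 and c-Myc, were searched likewise. CCACACCC was found in 5.9% of gained, 2.81% of lost and 3.56% of all windows. CACGTG was found in 9.44%, 3.75% and 7.15%, and these differences were not tested either. These shares are over whole promoter windows, which are longer than the stretches shown around each match. The stretch of Nanog lies at chr6:122707402-122707447 (plus strand), that of Pou5f1 at chr17:35508629-35508674 (plus strand) and that of Zfp42 at chr8:43307168-43307215 (minus strand). Col3a1, the collagen gene with the largest loss, is shown beside them because its promoter also holds the octamer, in the stretch at chr1:45311370-45311417 (plus strand). The octamer was therefore present at both a gained and a lost gene. Zfp42 also held CCACACCC, in a stretch that is not shown.
Nanog: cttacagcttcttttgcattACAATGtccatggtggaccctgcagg
Pou5f1: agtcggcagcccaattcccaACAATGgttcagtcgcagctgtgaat
Zfp42: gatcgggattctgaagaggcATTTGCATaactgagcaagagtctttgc
Col3a1: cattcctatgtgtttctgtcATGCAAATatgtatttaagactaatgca

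Other genes of early embryos and pluripotent cells were among the gained. Of 24 genes of the Dppa family and like factors, 15 had a symbol and all were higher, with a median log2 difference of 7.54. Tdgf1 (Cripto), a co-receptor of Nodal, had the largest gain of all named genes on the values as deposited. It was at 0.11, 0.18, 0.13 and −0.04 in OSKM clones and at −9.63, −10.21 and −9.32 in MEFs, a difference of 9.82 ± 0.17 (902-fold). After quantile normalization the difference was 4.24, below that of Dppa2 with 4.46. Dppa5a, an RNA-binding protein of pluripotent cells, was gained 792-fold, with OSKM clones between −0.05 and 0.01. Dppa2, which binds DNA at genes of early development, was gained 442-fold. L1td1, an RNA-binding protein, gained 340-fold, Ooep, of the maternal complex of the egg, 237-fold, and Fbxo15, an F-box protein and Oct4 target, 224-fold. None of the 15 genes differed from mESCs by the test, and their differences from mESCs lay between −0.58 and 0.84.

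Germline genes were also present among the gained. Of 52 listed, 16 had a symbol and all 16 were higher, with a median of 5.27. Rhox5, an X-linked homeobox gene of the reproductive tract, was at 0.22, 0.22, 0.19 and 0.21 in OSKM clones, at −7.74, −8.85 and −8.40 in MEFs and at −1.26, −1.14 and −1.39 in mESCs. Dazl, an RNA-binding protein needed for germ cells, was gained by 8.41, Stk31 by 7.47, Tex19.1 by 6.71, Mael by 6.53 and Hormad1, a meiotic chromosome protein, by 6.37 log2 units. For all 16 genes every OSKM clone was above every MEF sample, which the limit of the lists makes likely.

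Of 38 genes for chromatin and DNA methylation, 11 had a symbol and all were gained, with a median of 5.52. Dnmt3l, the cofactor of the de novo DNA methyltransferases, was at 1.18, 1.20, 1.33 and 1.20 in OSKM clones, at −6.46, −6.15 and −5.90 in MEFs and at −0.04, 0.04 and −0.17 in mESCs. Dnmt3b, one of those methyltransferases, was at 0.97 to 1.24 in OSKM clones, at −5.10 to −4.41 in MEFs and at −0.88 to −0.09 in mESCs. For both genes OSKM clones lay above mESCs as well as above MEFs. Morc1, needed for silencing of transposons in the male germline, was gained 262-fold, the kinase Aurkc 115-fold, Cdca7 48.8-fold and the chromatin remodeller Hells 45.9-fold.

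Of 69 epithelial genes, 14 had a symbol and all 14 were higher, with a median of 5.21. The others were not analysed here. Cdh1 (E-cadherin), which joins epithelial cells, was at 0.01, −0.03, −0.12 and −0.19 in OSKM clones and at −8.48, −8.73 and −9.003 in MEFs, a difference of 8.65 ± 0.16 (402-fold). Epcam, the adhesion molecule whose forced expression is studied in other groups of the series, was at −0.15, −0.09, 0.09 and 0.11 in OSKM clones and at −7.03, −7.62 and −7.42 in MEFs, a gain of 163-fold, with no EpCAM plasmid in the OSKM cells. The desmosomal cadherin Dsg2 was gained 114-fold and claudin Cldn4, of the tight junction, 49.2-fold. Mpzl2, an epithelial adhesion molecule, depended on the MEF sample, with −3.33 in sample 1 against −6.50 and −6.34 in samples 2 and 3. Without sample 1 the list's median was 5.71.

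Of the signalling genes fixed for pluripotent cells, 6 of 60 had a symbol and all 6 were gained. Fgf4, a growth factor of the early embryo, was gained by 8.15, Nodal, the ligand for which Tdgf1 is a co-receptor, by 5.38, and the receptor kinase Kit by 5.35. Kitl, the ligand of Kit, was lost by 6.73 log2 units, with OSKM clones at −1.31 to −0.95 and MEFs at 3.42, 6.74 and 6.78, and its log2 difference was −7.84 without MEF sample 1. The receptor and its ligand thus moved in opposite directions. Of 76 metabolic genes, 13 had a symbol, of which 12 were gained and 1, Dpyd, which degrades pyrimidines, was lost. Upp1, a uridine phosphorylase, was gained 295-fold, the folate receptor Folr1 115-fold and Tdh, the threonine dehydrogenase on which mouse pluripotent cells depend, 83.5-fold. Slc2a3, a glucose transporter, was gained at its 3 listed probe sets, but by 4.43, 7.81 and 8.08. This was the widest range among the 164 genes with several listed probe sets. The median range of these genes was 0.56, and 0 of them had listed probe sets of opposite direction. Probe sets of the same genes that lay less than 10-fold from the MEF mean had no symbol. Smaller or opposite changes at such probe sets could therefore not be seen.

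Genes of cell division formed a large part of the named gains. These were grouped after their symbols had been seen and only from the gained genes, so that all being higher is by construction: 20 genes of DNA replication (median 4.40), 56 of mitosis (4.21) and 18 of DNA repair (4.19). Nasp, a histone chaperone, had the largest gain in replication with 61.1-fold, followed by Cdc6, which loads the replicative helicase, with 51.6-fold. Bub1, a kinase of the spindle checkpoint, was at −0.06 to 0.04 in OSKM clones and at −3.08, −6.54 and −6.20 in MEFs. Cep55, needed for the final separation of daughter cells, was at −3.06, −6.39 and −6.53 in MEFs. MEF sample 1 was about midway between the other MEFs and the OSKM clones for both genes, and without it their log2 differences were 6.37 and 6.49 in place of 5.27 and 5.36. Brca1 and Msh6, of recombination and mismatch repair, did not show this, with −4.74 against −4.93 and −4.88 for Brca1 and −5.48 against −4.75 and −4.67 for Msh6.

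Among the lost genes were many of the extracellular matrix. Of 26 collagens 7 had a symbol and all 7 were lower, with log2 differences from −8.17 to −5.38. Col3a1, a fibrillar collagen of loose connective tissue, was at 0.09, −0.15, −0.38 and −0.29 in OSKM clones and at 5.51, 9.19 and 9.28 in MEFs. It was lost 289-fold, and its log2 difference was −9.41 without MEF sample 1 and −5.69 against sample 1 alone. Col1a1, the chain of type I collagen, was lost 44.7-fold and was as high in MEF sample 1 (5.49) as in samples 2 and 3 (5.19 and 5.15). Col12a1, which coats fibrils, likewise lay at 5.50, 5.42 and 5.62 in the 3 MEF samples. Its loss did not pass (limma adjusted p = 0.101) after quantile normalization, which narrows MEF values by construction. The probe sets of Col6a1, Col6a2 and Col6a3, which encode the chains of type VI collagen, fell by 7.23, 5.88 and 5.38, the last by 5.98 without MEF sample 1.

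Of 90 matrix glycoproteins and proteoglycans, 36 had a symbol and all 36 were lower, with a median of −5.46, and of −6.29 without MEF sample 1. Ogn, a small leucine-rich proteoglycan, was at −0.17, −0.26, −0.42 and −0.81 in OSKM clones and at 6.04, 8.63 and 8.68 in MEFs. Nov, a matricellular protein, was at −0.11 to 0.17 in OSKM clones and at 5.04, 9.49 and 9.18 in MEFs. In both the lowest MEF sample was sample 1, still above every OSKM clone, and without it the log2 differences were −9.07 for Ogn and −9.34 for Nov in place of −8.19 and −7.91. Abi3bp and Comp, proteins of the pericellular matrix and of cartilage and tendon, were lower still in sample 1, with 1.96 and 1.28 against 8.86 and 8.96, and 7.97 and 8.18. Their log2 differences of −6.67 and −5.78 became −8.99 and −8.04 without sample 1. With the methods' t-test after Benjamini-Hochberg adjustment neither passed (adjusted p = 0.0504 and 0.0724).

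Of 73 enzymes of the matrix and their inhibitors, 17 had a symbol and all 17 were lower, with a median of −5.64, of −6.25 without MEF sample 1 and of −4.75 against it alone. Adamts1, a protease that cleaves proteoglycans, was at −0.24, −0.56, −0.50 and −0.45 in OSKM clones and at 6.44, 8.23 and 8.32 in MEFs, a 275-fold loss and a log2 difference of −8.71 without sample 1. Mmp2 and Mmp3, matrix metalloproteinases, were lost 85.5-fold and 113-fold. Mmp3 was at 2.28 in MEF sample 1 and at 8.88 and 8.98 in the others, whereas Mmp2 was at 5.01, 6.75 and 6.82. Without sample 1 the log2 difference of Mmp3 was −9.04 in place of −6.82 and that of Mmp2 −7.01 in place of −6.42.

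Of 143 transcription factors of mesenchyme and patterning, 27 had a symbol and all 27 were lower, with a median of −4.69, of −5.11 without MEF sample 1 and of −3.62 against it alone. Egr1, an immediate early gene, was at −0.92, −1.19, −1.45 and −1.06 in OSKM clones and at 7.14, 5.47 and 5.50 in MEFs, highest in sample 1. Prrx1, a homeobox factor of limb mesenchyme, was at −0.29, −0.88, −0.45 and −1.001 in OSKM clones and at 5.98, 6.21 and 6.22 in MEFs. Snai2 and Twist1, which repress epithelial genes such as Cdh1, were lost by 5.30 and 5.07. Both were lower in MEF sample 1 (3.51 and 3.39) than in samples 2 and 3, in which they ranged from 5.50 to 6.07, so that without it the log2 differences were −6.12 and −5.79. Maf was lost by 5.51, Fosl2, of the AP-1 family, by 5.35 and Lhx9 by 5.24, with log2 differences of −6.59, −5.995 and −6.18 without sample 1.

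Of 141 genes of growth factor signalling, 39 had a symbol, of which 38 were lost, with a median of −5.38 (−5.90 without MEF sample 1), and 1 was gained, the midkine gene Mdk (by 4.74). Agtr2, an angiotensin receptor, was at 0.01, −0.01, −0.36 and −0.17 in OSKM clones and at 4.89, 9.43 and 9.43 in MEFs, a log2 difference of −8.04 and of −9.56 without sample 1. Ptn (pleiotrophin), a heparin-binding growth factor, was at −1.20, −0.71, −1.15 and −1.47 in OSKM clones and at 7.38, 6.48 and 6.37 in MEFs. It was one of the lost genes with a higher value in MEF sample 1 than in the others. Rspo2, an enhancer of Wnt signalling, and Dkk2, a modulator of it, were lost 225-fold and 198-fold, with 3.52 and 4.54 in MEF sample 1 and 9.05 to 9.80 in samples 2 and 3. Their log2 differences were −7.81 and −7.63, and −9.90 and −9.14 without sample 1. The receptors Pdgfra and Pdgfrb, which mark mesenchymal cells, were lost by 5.84 and 6.21, the first with a log2 difference of −6.93 without sample 1.

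Of 88 cytokines and innate immune genes, 13 had a symbol and all 13 were lower, with a median of −5.81, of −6.15 without MEF sample 1 and of −3.40 against it alone. Cxcl5, a neutrophil chemokine, had the largest loss on the values as deposited, each gene being taken by 1 probe set. It was at −0.05, −0.25, −0.05 and −0.04 in OSKM clones and at 3.30, 10.57 and 10.53 in MEFs, a log2 difference of −8.23 ± 1.31, of −10.65 without sample 1 and of −3.40 against sample 1 alone. A further probe set of Ogn fell by 8.63, and after quantile normalization the log2 difference was −3.57 for Cxcl5 and −5.53 for Ptn. Lcn2, an iron-binding protein of innate defence, was at 1.95, 9.82 and 10.06 in MEFs, with a log2 difference of −7.34, and of −10.001 without sample 1. Cxcl12, the ligand of Cxcr4, was at 6.47, 8.20 and 8.26 in MEFs and was lost 209-fold. Ptx3, a soluble pattern receptor, was at 4.01, 9.04 and 9.11 in MEFs and was lost 208-fold, a log2 difference of −7.70, which was −9.39 without sample 1. Osmr, the receptor subunit for oncostatin M, was lost 177-fold. Without sample 1 the log2 differences of Cxcl12 and Osmr were −8.30 and −8.15 in place of −7.71 and −7.46. With the methods' t-test after adjustment Lcn2 missed the threshold (adjusted p = 0.0575).

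Of 77 surface and adhesion genes, 19 had a symbol and 17 of these were lower, while Cadm1 and Dpp4 were gained by 4.33 and 5.42. Cdh11, a cadherin of mesenchymal cells, was at 0.04, −0.62, −0.11 and −0.76 in OSKM clones and at 6.78, 7.58 and 7.63 in MEFs, a loss of 7.69 beside the gain of 8.65 of Cdh1. Aqp1, a water channel, was at 4.46, 7.67 and 7.76 in MEFs and was lost 110-fold, a log2 difference of −6.78, which was −7.87 without sample 1. The large cadherin Fat4 was at 4.36, 7.71 and 7.81 and was lost 105-fold, a log2 difference of −6.71, which was −7.85 without sample 1. Lrrc17 was lost by 6.65 log2 units, with MEF values of 6.46, 6.62 and 6.51 that hardly differed. Enpp2 (autotaxin), which makes lysophosphatidic acid, was at 1.59, 8.98 and 8.95 in MEFs, with a log2 difference of −6.52, or −8.98 without sample 1, and did not pass the methods' t-test after adjustment (adjusted p = 0.0641). Only 3 of 93 contractile and cytoskeletal genes had a symbol, Arhgap24, Nrp1 and Sgcb, and all 3 were lost.

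**Figure D1:**
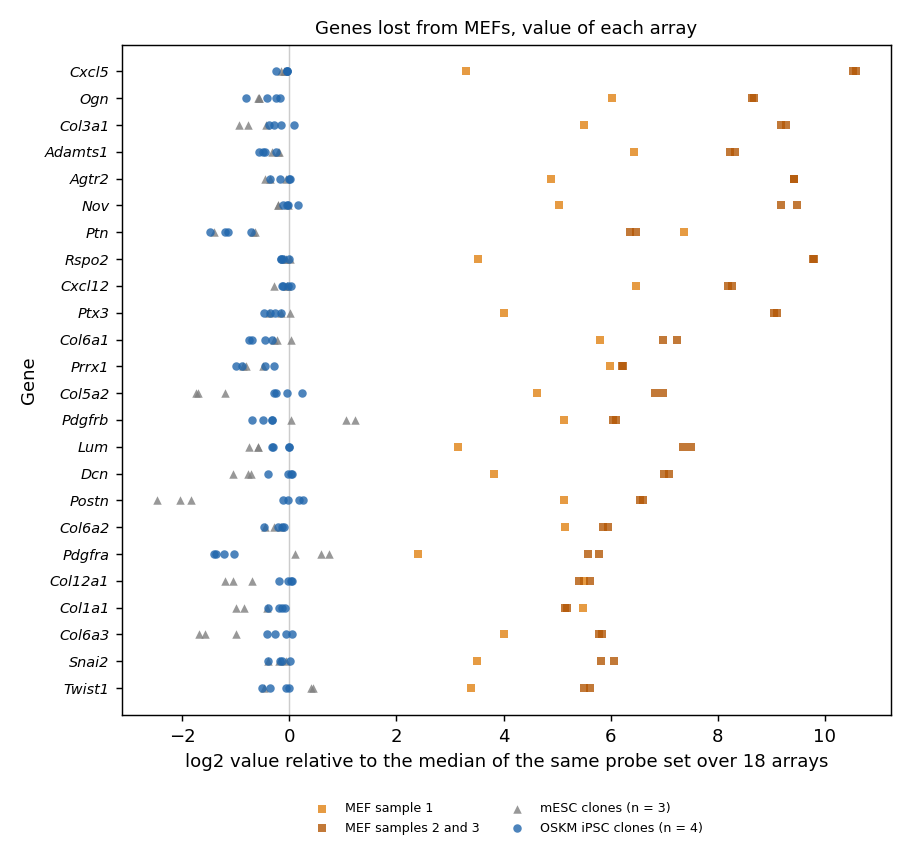
Log2 value of each array, relative to the median of its probe set over 18 arrays (horizontal axis), for the 10 largest losses, the 7 collagens and 8 mesenchymal or fibroblast markers (rows, ordered by the difference). Squares are MEFs with sample 1 in lighter brown, circles the 4 OSKM clones and triangles the 3 mESC clones. All OSKM clones lie below all MEFs, and MEF sample 1 is lowest of the MEFs for most genes, as for Cxcl5 (3.30), but not for Col1a1, Col12a1 and Ptn.

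The position of MEF sample 1 differed from list to list. It was expressed as the percent of the way from the mean of MEF samples 2 and 3, at 0, to the mean of OSKM clones, at 100. The median was 17.8 over all 11254 called probe sets and 21.1 over the authors' lists. It was 2.85 for the pluripotency transcription factors, 2.80 for the Dppa list, 3.55 for germline and 3.70 for chromatin genes. It was 21.6 for DNA replication and 38.5 for mitosis, but 4.90 for DNA repair. Among the lost genes it was 16.9 for collagens, 22.8 for matrix enzymes, 34.9 for mesenchymal factors, 36.2 for growth factor signalling, 37.0 for matrix glycoproteins and 53.2 for cytokines and immune genes. MEF sample 1 thus had lower values of mesenchymal and immune genes and higher values of mitotic genes than the other MEFs, with pluripotency genes at the same level in the median. The part of culture, passage or preparation in this was not tested.

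**Figure D2:**
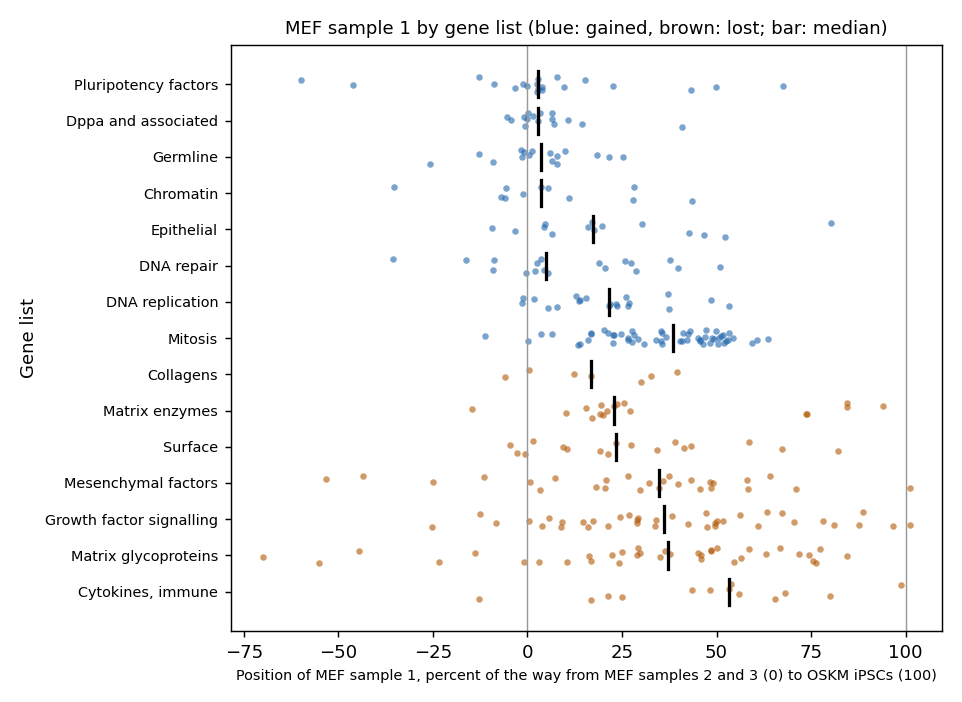
Position of MEF sample 1 for each gene (points) and the median of each list (black bars), as percent of the way from the mean of MEF samples 2 and 3 (0) to the mean of the 4 OSKM clones (100), with gained lists in blue and lost lists in brown. Medians of the pluripotency, Dppa, germline and chromatin lists lie between 2.80 and 3.70, that of mitosis at 38.5 and that of cytokines and immune genes at 53.2.

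For 4 lost genes the OSKM and MEF arrays overlapped, and in each it was MEF sample 1 that lay at the level of the OSKM clones. Hoxd13, a homeobox gene of the distal limb, was at −0.12 to 0.10 in OSKM clones and at −0.09, 6.58 and 6.72 in MEFs. Galnt9, an enzyme of O-glycosylation, was at −0.04, 6.27 and 6.29 in MEFs, Gdf10, a ligand of the TGF-beta family, at −0.06, 5.28 and 5.49, and Hp (haptoglobin) at 0.09, 5.58 and 6.04. These genes passed the test with all MEFs (limma adjusted p from 0.00174 to 0.00222), but their loss rested on MEF samples 2 and 3. Against sample 1 alone the log2 differences were −0.07 to 0.08.

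Some genes of the sex chromosomes separated the MEF samples too. The Y-linked Ddx3y was at −0.02 to 0.24 in OSKM clones and at −1.79, −5.80 and −5.31 in MEFs, and Eif2s3y, likewise Y-linked, at 0.02 to 0.14 and at −1.95, −6.23 and −6.31. Xist, the RNA that silences an X chromosome, was at −0.08 to 0.06 in OSKM clones and at 4.91, 6.51 and 5.72 in MEFs. OSKM clones thus had more of both Y-linked transcripts and less Xist than any MEF sample. Uba1y, a further Y-linked gene among the gained, did not separate the MEF samples in this way. It was at −5.53 in MEF sample 1 and at a mean of −5.74 in samples 2 and 3. The sources used here do not state the embryos' sex, and its part in the other differences was not tested.

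OSKM clones were then set against mESCs, the reference for the pluripotent level. A gene was listed only where the OSKM and the mESC arrays each lay at least 10-fold from the MEF mean, so genes in which either stayed near MEFs are missing, and the counts describe the listed genes only. Of all probe sets, 1476 (3.28%) passed the same limits, 710 higher and 766 lower in OSKM iPSCs. Of the 687 genes 39 (5.68%) did so. Among the gained genes 17 were higher and 13 lower than in mESCs, and among the lost genes 6 were higher and 3 lower. The variable MEF sample 1 widens the pooled spread even here. Without it 52 genes passed, including all 39, and the 13 added were Col5a2, Crxos1, Dusp9, Egr1, Fgfrl1, Hmgn3, Laptm5, Mpzl2, Pdgfra, Postn, Sfrp2, Tnc and Vcan. Sfrp2, a secreted modulator of Wnt signalling, had a log2 difference of −3.06 from mESCs with a limma adjusted p of 0.105 with MEF sample 1 and of 3.83e-06 without it.

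Lowest against mESCs was Pou5f1, by 5.52 ± 0.42 log2 units (45.8-fold, limma adjusted p = 3.46e-07). Nr5a2, a nuclear receptor that can activate Pou5f1, was at −0.09, −0.28, −0.34 and −0.38 in OSKM clones, at −4.38, −4.17 and −3.91 in MEFs and at 1.75, 1.86 and 1.62 in mESCs. Zfp42 was 3.88-fold lower than in mESCs (adjusted p = 1.29e-06 by limma), with mESCs at 1.81 to 1.95. These 3 factors had reached levels between MEFs and mESCs. Triml1, a tripartite motif protein of early embryos, was lower by 1.86, and Armcx3, a lost gene that encodes a mitochondrial outer membrane protein, by 2.02. The call of Armcx3 was lost without mESC clone 3 (log2 difference −1.84, limma adjusted p = 0.0594). Nanog, Tdgf1, Dppa5a and Esrrb, by contrast, differed from mESCs by −0.02, −0.15, −0.04 and 0.09, with limma adjusted p from 0.701 to 0.976 and standard errors of 0.09 to 0.17.

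Highest against mESCs was 2210409E12Rik, at −0.03, 0.03, 0.13 and 0.12 in OSKM clones, at −8.08, −7.57 and −7.21 in MEFs and at −4.02, −3.72 and −3.97 in mESCs, a difference of 3.96 ± 0.23. Gm8267, Mep1b (a metalloprotease of the meprin family), 2410024N13Rik and Nlrp4f, of a family expressed in oocytes, followed with 2.61, 2.52, 2.51 and 2.42. All of them lay near 0 in OSKM clones and between MEFs and OSKM clones in mESCs, which places mESCs and not OSKM iPSCs at the intermediate level. Stk31 was higher by 1.75, Dnmt3b by 1.59, Rhox5 by 1.48, Cldn4 by 1.47 and Dnmt3l by 1.28. The call of Dnmt3l was lost without any 1 of the OSKM or mESC arrays (limma adjusted p from 0.0663 to 0.123). Of the lost genes, Vgll3, a cofactor of TEAD factors, Pmp22, a membrane protein of myelin, Id3, an inhibitor of basic helix-loop-helix factors, and Col6a3 remained above mESCs by 2.25, 1.83, 1.79 and 1.24.

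**Figure D3:**
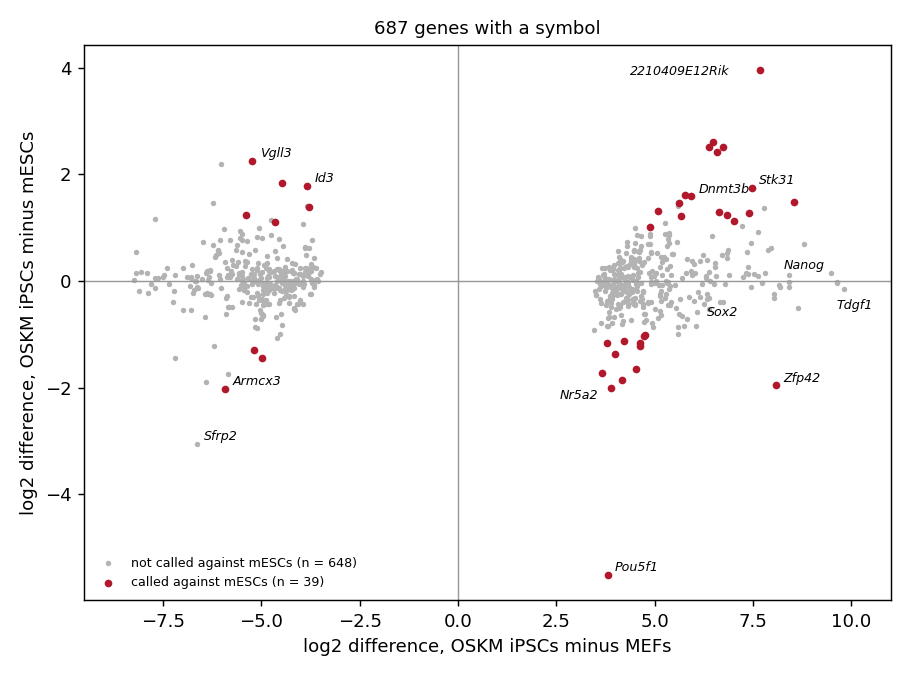
Log2 difference of OSKM iPSCs from MEFs (horizontal axis) and from mESCs (vertical axis) for the 687 genes with a symbol, each point 1 gene, with the 39 that passed the test against mESCs in red. The gap around 0 on the horizontal axis is made by the authors' limit, and Pou5f1 lies lowest at −5.52 and 2210409E12Rik highest at 3.96.

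Feeder fibroblasts were used in the culture of iPSCs, and whether they were removed before RNA was prepared is not given in the sources used here. The mean of the 9 fibroblast markers was −0.43 to −0.27 in OSKM clones and −0.65 to −0.39 in mESCs. The lists took only markers whose OSKM and mESC arrays all lay 10-fold or more from the MEF mean. Low values in both groups are thus fixed by that limit, and markers that stayed nearer to MEFs are missing. Of these markers 6 were higher and 3 lower than in mESCs, and 0 of 9 passed the test against mESCs by limma with all 18 arrays, while Pdgfra and Postn did so without MEF sample 1 (adjusted p = 0.000256 and 0.0312). The part of feeder cells in the remaining fibroblast transcripts was not tested.

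The spread over OSKM clones was smaller than that over the 3 MEF samples, of which samples 2 and 3 differed from each other by 0.236, about as much as the furthest OSKM clones (0.235). The median SD over clones was 0.080 for the gained and 0.155 for the lost genes, against 0.434 and 1.153 over the MEF samples, and over all probe sets it was 0.115 in OSKM clones and 0.207 in MEF samples. The most variable named gene was S1pr3, a receptor of sphingosine-1-phosphate, at −0.32, −0.57, −0.84 and −1.65 in OSKM clones 1 to 4. Zic2, a zinc finger factor, was at 0.82 in clone 1 and at −0.11 to 0.12 in the others. Sfrp2 was at −1.01 in clone 2 and at −0.36 to −0.10 in the others, Comp ranged from −0.35 to 0.60 and Cdh11 from −0.76 to 0.04. Each of these ranges is small beside the difference from MEF samples 2 and 3.

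Many large differences have no gene name here. Of 812 probe sets at least 10-fold higher in OSKM iPSCs than in MEFs 58.7% were in the authors' lists, and of 1009 at least 10-fold lower 46.7%. At 100-fold and above, 60 of 61 higher and 42 of 44 lower probe sets were listed. The authors' lists, not all of whose probe sets have 1 symbol, thus hold nearly all of the very large differences and only part of the moderate ones.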

How the data were processed

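RNA of OSKM iPSC clones (n = 4), MEF samples (n = 3) and mESC clones (n = 3) was measured on the Affymetrix mouse expression array 430, 1 array for each. The authors used GeneSpring GX and deposited log2 values, each probe set centred on its median over the 18 arrays. The submitters' processing notes name MAS5 and RMA without a role, and the version and the normalization between arrays are not given in the sources used here. Trizol and biotin stand in the labels, RNeasy and Cy3 in the methods. The authors' lists also give linear fold ratios to a MEF mean, a deposited comparison of which only the gene symbols were used. Since the values are centred, signal over background is unknown, the planned filter on dim probe sets was replaced by the probe sets with the larger SD over arrays, and the number of arrays limits the precision.

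Of 45101 probe sets 64 controls were left out. No 2 arrays held identical values. Of 948 listed probe sets, 17 had no symbol and 27 had several, and these were not named. Groups were taken from the labels. One mean per group was fitted over the 18 arrays with limma 3.58.1 in R 4.3.3 (lmFit, eBayes), with Benjamini-Hochberg adjustment over all 45037 probe sets. Calls needed an adjusted p under 0.05 and a change of at least 2-fold. The fit was tested on simulated data. Tables and plots were made with Python 3.11.15, numpy 2.4.6, pandas 2.3.3 and matplotlib 3.10.9.

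A gene with several probe sets was represented by 1, in the order _at, _a_at, _s_at and _x_at and then by the lowest number. Genes were named as up to 6 with the largest difference per list, the 10 largest gains and losses, the 5 with the largest SD over OSKM clones, and the 5 highest and lowest of those called against mESCs, and any list member without a call, some of which are not reported here. Genes outside this rule were named after their values were seen: those in which MEF sample 1 stood apart, Uba1y, fibroblast and pluripotent markers, further genes called against mESCs and the 4 that overlapped. The comparison, the gene lists and the lists of replication, mitosis and repair were chosen with earlier results of these data known. Promoter letters were searched in RefSeq windows (GRCm38.p6). Windows were found for 273 of 361 gained and 238 of 326 lost genes, and shares were not tested between the sets. The alternatives were other fold and p thresholds, quantile normalization, centring of arrays, trend and robust options of eBayes, array weights, a fit of the compared groups only, the methods' t-test, a replicate block and the removal of each array in turn.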

Additional observations from a re-analysis of the deposited data

Results flagged for a closer look

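For 126 named genes the 4 OSKM clones were searched for a single clone far from the others, with Dixon's ratio of the gap to the whole range above his critical value for 4 samples. This was the case for 5 genes, and chance gives about 1 in 20 groups, or 6.3 here. Cxcl5 was at −0.249 in clone 2 and at −0.047 to −0.041 in the others (ratio 0.972). Dnmt3l was at 1.326 in clone 3 and at 1.183 to 1.200 in the others (0.881). Dcn, a small proteoglycan, was at −0.396 in clone 3 and at −0.029 to 0.042 in the others (0.838). Zfp42 was at 0.093 in clone 1 and at −0.126 to −0.090 in the others (0.837), and Cdca5, a regulator of sister chromatid cohesion, at 0.058 in clone 2 and at 0.113 to 0.125 in the others (0.833). In each gene the clone apart stayed on the side of the other clones when set against every MEF sample.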

How the results depend on the processing

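All 687 genes kept their direction against MEFs under each alternative run, and 0 named genes reversed against MEFs or mESCs. Against MEFs 11254 probe sets passed, 20934 without a fold threshold, 1821 at 10-fold and 4018 after quantile normalization, which gives the MEF arrays, far from the centre, the same distribution as the rest. The other alternatives gave 9817 to 16233. Leaving out 1 array gave 10909 to 12184, the highest without MEF sample 1. Against mESCs 1476 probe sets passed, 3364 at 1.5-fold, 4782 without a fold threshold, 49 at 10-fold and 3030 after quantile normalization, and 1158 to 1528 without 1 OSKM or mESC array. Of the genes with a symbol 39 passed against mESCs, 68 at 1.5-fold, 83 without a fold threshold, 2 at 10-fold and 69 after quantile normalization, 30 to 37 without 1 OSKM or mESC array, and 52 without MEF sample 1, an alternative chosen after seeing the data. The median position of MEF sample 1 was 17.8, 21.1 over the authors' lists and 27.9 over probe sets called without it. Of the 126 genes named by the rule, quantile normalization ended the call against MEFs of Pou5f1, Nr5a2, Col12a1, Dcn, Fosl2, Mgp and Phlda2, and the adjusted t-test of the methods that of Sfrp2, Comp, Abi3bp, Enpp2 and Lcn2. The cause was not tested, but quantile normalization narrows MEF values by construction. Replicate numbers were not taken as a pairing of the samples in the main fit. Deviations of OSKM arrays from their group mean correlated with those of like-numbered MEFs at −0.013, −0.003 and 0.051. With those of like-numbered mESCs they correlated at 0.254, −0.048 and 0.066. Such correlations cannot show whether samples shared a culture or a batch. With the replicate number as a block, 11254 and 1453 probe sets and 36 genes passed, the first against MEFs and the other two against mESCs. Levels of unlisted genes and detection are limited by the files, not by depth.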
